A study of Mus musculus with 9 samples.

Results

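The genes that bring iron into the duodenal enterocyte, store it, export it and recover it from heme were followed in mouse duodenal organoids that overexpressed HIF2 or HIF1. They comprised 10 genes chosen by symbol from the 46517 genes of the deposited tables: Cybrd1, Slc11a2, Slc40a1, Heph, Tfrc, Fth1, Ftl1, Aco1, Ireb2 and Hmox1. All 10 symbols were found, and 9 of the genes had enough reads to be tested in every comparison, while Heph did not.

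Organoids had been grown in Matrigel and L-WRN conditioned medium from duodenal crypts of wild-type C57BL/6 mice and kept at 5% O2. The paper describes such cultures as enriched for intestinal stem cells, and they were dissociated into single cells for transduction. RNA sequencing covered 9 cultures, of which 3 had received Ad-GFP, 3 Ad-hHIF2 and 3 Ad-hHIF1, at 50 particles per cell and harvested about 72 hours later. The adenoviruses express green fluorescent protein, human HIF2 or human HIF1 for a limited time, and both HIF alleles carry proline-to-alanine substitutions that keep VHL from marking them for degradation. All 9 cultures therefore received a virus and a low oxygen level, and the Ad-GFP samples served as control for both HIFs. Samples of a group are described as biological replicates numbered 1, 3 and 4, without a statement of whether each came from its own mouse, so p-values measure the spread between these samples.

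Dietary iron is reduced at the brush border by duodenal cytochrome b (Cybrd1) and taken up by the divalent metal transporter DMT1 (Slc11a2). It is stored in ferritin, a shell of heavy (Fth1) and light (Ftl1) chains, or leaves the cell through ferroportin (Slc40a1) after oxidation by hephaestin (Heph). Iron bound to transferrin enters through the transferrin receptor (Tfrc), and heme oxygenase 1 (Hmox1) releases iron from heme. When iron is scarce, the iron regulatory proteins IRP1 (Aco1) and IRP2 (Ireb2) bind iron-responsive elements (IREs), which blocks translation when the element lies in a 5′ UTR and stabilises the mRNA when it lies in a 3′ UTR. HIF2 is known as the intestinal HIF that drives transcription of iron absorption genes in iron deficiency, and the 5′ UTR of its own mRNA carries an IRE.

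Total expected counts ran from 21722618 to 51119041 per sample. Reads assigned to Gm10800 and Gm26870 made up 16.0% of the Ad-hHIF1 replicate 3 library and 0.433% to 4.28% of the others, so results are also given without that library where it changed them. Of the markers of the labelled tissue, Cdh1 (E-cadherin) was at 204 to 352 CPM (a library-scaled count that uses TMM factors) and the enterocyte genes Apob and Krt20 at 346 to 487 and 34.3 to 53.2 CPM. By contrast, 8 of 12 enterocyte markers and 5 of 6 intestinal stem cell markers had a median below 1 CPM over the 9 samples, Cdx1 was listed at 0 in every sample, and Epcam was at 1.42 to 3.80 CPM. Epas1, the mouse gene for HIF2α, was at 604 to 757 CPM in Ad-hHIF2 samples and 1.47 to 2.20 in Ad-GFP samples. Hif1a was at 299 to 319 CPM in Ad-hHIF1 samples and 197 to 251 in Ad-GFP samples, a difference that missed the threshold (log2 fold change 0.49, adjusted p = 0.486, edgeR), though it passed in DESeq2 (adjusted p = 5.76e-05) and in edgeR without a count filter (adjusted p = 0.00251). Both values count transgene reads only where these matched the mouse gene.

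Sequences that match an IRE pattern were searched for in the GENCODE M21 transcripts of GRCm38. The pattern searched was an unpaired C, 5 bases, the loop CAGTGN with N being A, C or T, and 5 bases that pair with the first 5 (G-T pairs allowed), on the transcript strand. It was found in a UTR of 4 of the 10 genes, in the 5′ UTR of Fth1, Ftl1 and Slc40a1 and at 4 places in the 3′ UTR of Tfrc. Among 22527 protein-coding genes, 0.102% held it in a 5′ UTR and 0.488% in a 3′ UTR. The sites are shown because the iron regulatory proteins bind them, with the loop in capitals and the pattern's bulged C and stem within the lower-case letters.
Fth1 5′ UTR, chr19:9982732-9982760, plus strand: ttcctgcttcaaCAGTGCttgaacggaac
Ftl1 5′ UTR, chr7:45459779-45459807, minus strand: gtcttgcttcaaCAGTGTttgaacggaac
Slc40a1 5′ UTR, chr1:45925465-45925493, minus strand: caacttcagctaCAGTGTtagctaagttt
Tfrc 3′ UTR, chr16:32631219-32631247, plus strand: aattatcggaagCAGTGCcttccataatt
Tfrc 3′ UTR, chr16:32631598-32631626, plus strand: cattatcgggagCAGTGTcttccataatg
Tfrc 3′ UTR, chr16:32631663-32631691, plus strand: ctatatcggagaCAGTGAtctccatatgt
Tfrc 3′ UTR, chr16:32631710-32631738, plus strand: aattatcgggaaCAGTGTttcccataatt
In the other members, Slc11a2 among them, this exact pattern was not in a UTR of the annotated transcripts. The pattern allows no unpaired base within the 5 stem pairs. An IRE of another shape would be missed, so the search does not show that these genes lack one.

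HIFs bind DNA at hypoxia response elements, whose core letters are ACGTG or GCGTG. These letters were searched on both strands (CACGT and CACGC on the other strand) in RefSeq promoter windows of GRCm38.p6 that run from 250 bases before to 50 bases after a gene's start. Windows were matched for 6 of the 10 genes (Cybrd1, Tfrc, Fth1, Ftl1, Aco1 and Ireb2), 8 windows in all, and 5 of the 8 held the letters, against 43.8% of the 32851 windows of the table. Beside Cybrd1 and Tfrc, Ftl1 held a match at position -47 and the second Fth1 window a match at -50. The first Fth1 window and those of Aco1 and Ireb2 held none. Shown are the match of Cybrd1 and the 3 matches in the first Tfrc window, since these genes moved most among the 6, with the core letters in capitals.
Cybrd1, position -161, chr2:71117881-71117909, plus strand: cacggtgcagccGCGTGatcgggggtgga
Tfrc, position -117, chr16:32608767-32608795, plus strand: cgcagccaatcgCACGCgctctcccgaca
Tfrc, position -64, chr16:32608820-32608848, plus strand: ggctactccgcgCACGCactggctgcgcg
Tfrc, position -2, chr16:32608882-32608910, plus strand: ctcggtaggtgtACGTGcggaaggaagtg
Positions are counted from the RefSeq start of each window. The second Tfrc window overlaps the first, shares its match at chr16:32608882-32608910 and holds further matches at positions -134 and -42 from its own start, so these windows are not independent. A match describes the letters only.

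In Ad-hHIF2 organoids, the brush-border reductase Cybrd1 rose about 4.58-fold against Ad-GFP, Hmox1 fell about 3.98-fold, and Tfrc fell about 2.46-fold. Ireb2 rose and Fth1 fell by smaller amounts, while Slc11a2, Slc40a1, Ftl1 and Aco1 did not pass the test against Ad-GFP. Of the 9 genes tested, 2 were higher and 3 lower (quasi-likelihood test of edgeR, Benjamini-Hochberg adjusted p under 0.05), and Cybrd1, Tfrc and Hmox1 also changed at least 2-fold. For reference, 29.5% of all 14987 genes tested passed in this comparison, 15.9% higher and 13.6% lower, and 6.73% passed and changed at least 2-fold. The groups did not overlap for 7 of the 9 genes, against 45.8% of all genes tested. The median log2 fold change was -0.03 over the 9 genes and -0.01 over all genes.

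In Ad-hHIF1 organoids, none of the 9 genes passed (edgeR, 0% of 15233 genes tested genome-wide). Before adjustment, Hmox1, Cybrd1 and Ireb2 had a p below 0.05 (0.000149, 0.0106 and 0.0473), as did 1308 of all genes, and over all genes 144 passed in DESeq2, 5 in limma-voom and 384 in edgeR without a count filter. The groups did not overlap for 2 of the 9, Hmox1 and Cybrd1, against 17.4% of all genes tested. The comparisons of HIF2 and HIF1 with Ad-GFP share their control samples, so the HIF groups were also compared with each other.

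Between Ad-hHIF2 and Ad-hHIF1 organoids, 6 of the 9 genes differed (edgeR, adjusted p below 0.05). Cybrd1 and Slc11a2 were higher with HIF2, and Tfrc, Fth1, Ftl1 and Hmox1 were lower. Of 15556 genes tested, 25.8% passed, 13.7% higher and 12% lower, and 6.11% passed with at least a 2-fold change, as did Cybrd1, Tfrc and Hmox1. The groups did not overlap for 7 of the 9 genes, against 41.8% of all genes tested. Without Ad-hHIF1 replicate 3, 4 of the 9 genes passed, with Slc11a2 and Ftl1 lost. The share of all genes that passed in that fit is not given here.

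**Figure D1:**
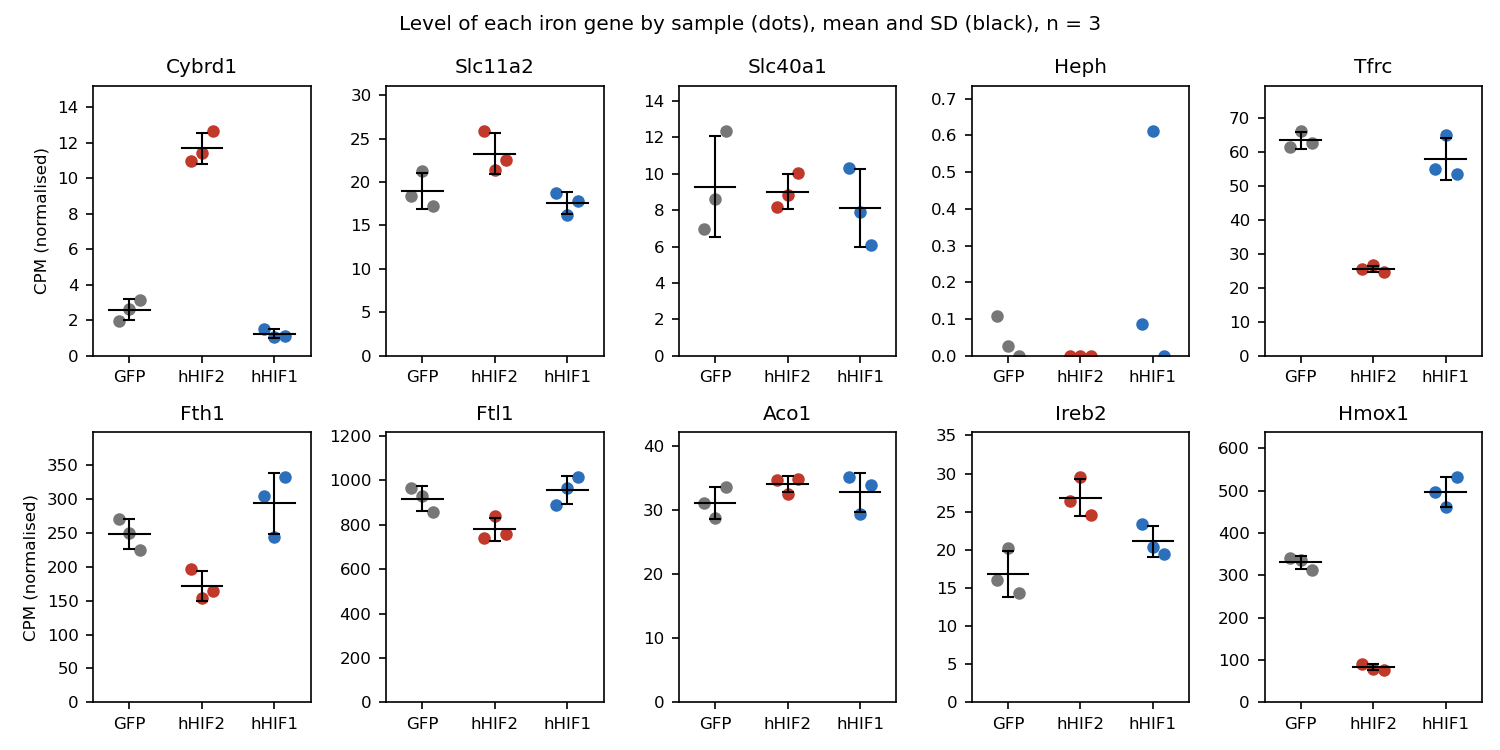
Level of each of the 10 iron genes in every sample, in CPM scaled by TMM factors over all 9 samples, with Ad-GFP in grey, Ad-hHIF2 in red and Ad-hHIF1 in blue. Dots are samples and black lines the mean and SD of 3 samples, drawn where no sample is at 0. The red dots lie apart from the grey ones for Cybrd1 (11.0 to 12.7 against 1.99 to 3.15 CPM), Tfrc and Hmox1, and overlap them for Slc40a1 and Aco1.

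Cybrd1 (ENSMUSG00000027015, chromosome 2, 71117923 to 71142926, plus strand) was measured at 1.99, 2.66 and 3.15 CPM in the Ad-GFP samples, 11.0, 11.4 and 12.7 in the Ad-hHIF2 samples, and 1.54, 1.09 and 1.10 in the Ad-hHIF1 samples. All 3 Ad-hHIF2 samples lay above all others, and all 3 Ad-hHIF1 samples lay below all Ad-GFP samples. The log2 fold change of Ad-hHIF2 over Ad-GFP was 2.19 (standard error 0.171, adjusted p = 4.55e-05, edgeR), which is rank 181 of 14987 genes by size. Against Ad-hHIF1 it was 3.22 (standard error 0.213, adjusted p = 3.62e-06, edgeR), a 9.32-fold difference and rank 108 of 15556 genes. The lower level in Ad-hHIF1 than in Ad-GFP samples came to -1.05 on the log2 scale (95% confidence interval -1.78 to -0.32, adjusted p = 0.501, edgeR). Counts of Cybrd1 were low, at 24.6 to 583 reads, and were not whole numbers in any of the 9 samples, so some of its reads were shared with other genes.

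Enterocyte markers were read beside Cybrd1. Of 12 listed, 7 were tested between Ad-hHIF2 and Ad-GFP, and by edgeR 1 was higher and 1 lower, against 15.9% and 13.6% of all genes. The higher one, named after its values were seen, was the apolipoprotein gene Apoa4, which had almost no reads in Ad-GFP samples (at most 0.0277 CPM) and so passed the count filter only through the Ad-hHIF2 samples (2.22 to 2.80 CPM). The lower one was Apob. Their summed level was 498 to 514 CPM in Ad-GFP, 395 to 423 in Ad-hHIF2 and 508 to 536 in Ad-hHIF1 samples. Without Apob and Krt20, which made up most of it, the sum was 5.19 to 8.03, 8.73 to 9.92 and 7.41 to 7.74 CPM. With Apoa4 left out as well it was 5.19 to 8.03, 6.27 to 7.12 and 7.41 to 7.74 CPM, so that the higher remainder in Ad-hHIF2 samples came from Apoa4. Of the general epithelial and duodenal markers, Cdh1 and Gata4 were higher and Epcam lower, and of the stem cell markers Slc12a2 was higher. The part of these markers in the Cybrd1 result was not tested, and in bulk RNA, fewer cells of a type and less RNA per cell cannot be told apart.

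Slc11a2 (ENSMUSG00000023030, chromosome 15, 100387898 to 100425072, minus strand), the transporter that carries the iron reduced by Cybrd1, moved little. It stood at 18.4, 21.3 and 17.3 CPM in Ad-GFP, 25.9, 21.4 and 22.5 in Ad-hHIF2, and 18.7, 16.2 and 17.9 in Ad-hHIF1 samples. The lowest Ad-hHIF2 sample was just above the highest Ad-GFP sample. Its log2 fold change over Ad-GFP was 0.29 (95% confidence interval 0.06 to 0.52, adjusted p = 0.0604, edgeR), and 0.40 over Ad-hHIF1 (standard error 0.105, adjusted p = 0.0188, edgeR). The call against Ad-hHIF1 was lost without Ad-hHIF2 replicate 1 (adjusted p = 0.0815, edgeR) or Ad-hHIF1 replicate 3 (adjusted p = 0.0565, edgeR), and that against Ad-GFP was gained without Ad-GFP replicate 3 (adjusted p = 0.0452, edgeR).

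Per length, Cybrd1 stayed the rarer of the uptake genes. The ratio of Cybrd1 to Slc11a2, in CPM per kb of effective transcript length, was 0.0413, 0.0498 and 0.083 in Ad-GFP samples and 0.202, 0.249 and 0.251 in Ad-hHIF2 samples. In Ad-hHIF1 samples it was 0.0478, 0.029 and 0.0321. This ratio does not depend on the scaling between libraries, and the Ad-hHIF2 samples stood above all others, while Ad-GFP and Ad-hHIF1 samples overlapped. It does depend on the Slc11a2 length estimated in each sample, which was 2125 bases in Ad-GFP replicate 1 and 3161 in Ad-hHIF1 replicate 1. The overlap between Ad-GFP and Ad-hHIF1 samples therefore holds only for the ratio per kb.

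On the export side, ferroportin RNA (Slc40a1, ENSMUSG00000025993, chromosome 1, 45908068 to 45926523, minus strand) was alike in mean and wide in spread. The values were 6.94, 8.58 and 12.3 CPM in Ad-GFP, 8.16, 8.81 and 10.1 in Ad-hHIF2, and 10.3, 7.91 and 6.08 in Ad-hHIF1 samples. All 3 groups overlapped. The log2 fold change of Ad-hHIF2 over Ad-GFP was -0.03 with a 95% confidence interval of -0.48 to 0.43 (adjusted p = 0.937, edgeR). Hephaestin (Heph, ENSMUSG00000031209, chromosome X, 96455359 to 96574485, plus strand) had 4, 1 and 0 reads in Ad-GFP, 0 in every Ad-hHIF2 and 3, 14 and 0 in Ad-hHIF1 samples. A count of 0 allows up to 3 reads, which is 0.0588 to 0.15 CPM in these libraries. Most samples were at or under that limit.

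Tfrc (ENSMUSG00000022797, chromosome 16, 32608920 to 32632794, plus strand) showed tight values within each group. It measured 61.5, 66.3 and 62.7 CPM in Ad-GFP, 25.6, 26.7 and 24.9 in Ad-hHIF2, and 55.2, 65.2 and 53.7 in Ad-hHIF1 samples. Every Ad-hHIF2 sample was below every other sample, and the Ad-GFP and Ad-hHIF1 samples overlapped. The log2 fold change was -1.30 against Ad-GFP (standard error 0.0672, adjusted p = 4.62e-06, edgeR) and -1.17 against Ad-hHIF1 (standard error 0.0839, adjusted p = 6.1e-06, edgeR). Between Ad-hHIF1 and Ad-GFP it was -0.13 (95% confidence interval -0.34 to 0.08, adjusted p = 0.697, edgeR).

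Per kb of length, both ferritin chains had the highest mean levels of the set in every group, and against Ad-GFP its heavy chain passed the test with HIF2 while its light chain did not. Fth1 (ENSMUSG00000024661, chromosome 19, 9980598 to 9985098, plus strand) stood at 270.0, 249.7 and 225 CPM in Ad-GFP, 196, 153 and 165 in Ad-hHIF2, and 305, 243 and 331 in Ad-hHIF1 samples. The Ad-hHIF2 samples lay below all others. Its log2 fold change was -0.53 against Ad-GFP (standard error 0.109, adjusted p = 0.00731, edgeR) and -0.78 against Ad-hHIF1 (standard error 0.132, adjusted p = 0.00189, edgeR).

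Ftl1 (ENSMUSG00000050708, chromosome 7, 45457944 to 45459884, minus strand) measured 964, 931 and 855 CPM in Ad-GFP, 740.3, 839 and 757 in Ad-hHIF2, and 887, 963 and 1012 in Ad-hHIF1 samples. The Ad-hHIF2 samples again lay below all others, by a small margin. The log2 fold change was -0.23 against Ad-GFP (95% confidence interval -0.44 to -0.02, adjusted p = 0.0899, edgeR) and -0.29 against Ad-hHIF1 (adjusted p = 0.0321, edgeR). That call was lost when any of 5 single samples was left out, with adjusted p of 0.0524 without Ad-GFP replicate 3, 0.113 and 0.117 without Ad-hHIF2 replicate 1 or 4, and 0.0638 and 0.111 without Ad-hHIF1 replicate 3 or 4 (edgeR). With the replicate number as a block it was 0.0517 (edgeR). The counts of Ftl1 were whole in 1 of the 9 samples, so its reads too were shared with other genes.

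Ferritin calls rest on the scaling between libraries. With total counts in place of TMM factors, the median log2 fold change of all genes between Ad-hHIF2 and Ad-GFP shifted by 0.257, and that between Ad-hHIF2 and Ad-hHIF1 by 0.181. Genome-wide, the calls of 2381 higher and 2035 lower against Ad-GFP became 3491 and 828, and those of 2137 and 1871 against Ad-hHIF1 became 2096 and 804. On that scale Fth1 was at -0.25 against Ad-GFP (adjusted p = 0.339, edgeR) and -0.58 against Ad-hHIF1 (adjusted p = 0.0621, edgeR), Ftl1 was at 0.02 and -0.12, and Slc40a1 at 0.22 against Ad-GFP. Cybrd1 (2.44), Ireb2 (0.92), Tfrc (-1.05) and Hmox1 (-1.72) kept their direction and their call against Ad-GFP on that scale, and Slc11a2 (0.56) gained one (adjusted p = 0.0136, edgeR).

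The deposited TPM values gave fewer calls. In limma on log2(TPM + 1), Tfrc was at -0.65 against Ad-GFP (adjusted p = 0.089), Fth1 at -0.08 (adjusted p = 0.914) and Ireb2 at 0.40 (adjusted p = 0.144), so these calls were lost. Those of Cybrd1, at 0.38 with a TPM of at most 0.52 in any sample, and Hmox1, at -1.45, held. Against Ad-hHIF1, the calls of Slc11a2, Tfrc, Fth1 and Ftl1 were lost on that scale as well. Ad-hHIF2 replicate 1 had a higher TPM than the other Ad-hHIF2 samples for Tfrc, Fth1 and Ireb2. Tfrc was at 1.68 TPM there, 0.91 and 0.81 in the others, and 2, 2.26 and 2.63 in Ad-GFP samples. Fth1 was at 66.6 TPM there, 28.4 and 31.4 in the others, and 44.5, 43.8 and 36.4 in Ad-GFP samples. Whether the TPM calls depend on that sample was not tested.

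Within a library, the scaling cancels. The ratio of Fth1 to Ftl1 per kb was 0.298, 0.293 and 0.288 in Ad-GFP samples, 0.293, 0.196 and 0.236 in Ad-hHIF2 samples and 0.37, 0.286 and 0.349 in Ad-hHIF1 samples. All 3 groups overlapped in this ratio, with the lowest values in Ad-hHIF2 replicates 3 and 4. The ratios of members were chosen after their values were seen.

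Of the iron regulatory proteins, Ireb2 rose with HIF2 and Aco1 did not pass. Ireb2 (ENSMUSG00000032293, chromosome 9, 54863789 to 54912530, plus strand) was at 16.0, 20.2 and 14.4 CPM in Ad-GFP, 26.4, 29.5 and 24.6 in Ad-hHIF2, and 23.5, 20.4 and 19.5 in Ad-hHIF1 samples. The Ad-hHIF2 samples lay above all others, and the Ad-hHIF1 samples overlapped the Ad-GFP samples. With HIF2, its level was 1.59-fold that in Ad-GFP (log2 fold change 0.67, standard error 0.127, adjusted p = 0.005, edgeR). Over Ad-hHIF1 it was 0.35 (95% confidence interval 0.06 to 0.63, adjusted p = 0.073, edgeR), and this passed without Ad-GFP replicate 3 (adjusted p = 0.0436, edgeR), without a count filter (0.0101, edgeR), with total counts (0.0454, edgeR), in limma-voom (0.0493) and in a fit of the HIF samples alone (0.0427, edgeR), while the other alternatives gave up to 0.331.

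Aco1 (ENSMUSG00000028405, chromosome 4, 40143081 to 40198338, plus strand) stood at 31.1, 28.7 and 33.7 CPM in Ad-GFP, 34.8, 32.6 and 34.9 in Ad-hHIF2, and 35.1, 29.4 and 33.9 in Ad-hHIF1 samples. The groups overlapped in all comparisons. Its log2 fold change was 0.13 over Ad-GFP with HIF2 (95% confidence interval -0.05 to 0.32, adjusted p = 0.239, edgeR) and 0.08 with HIF1 (95% confidence interval -0.15 to 0.30, adjusted p = 0.832, edgeR).

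Hmox1 (ENSMUSG00000005413, chromosome 8, 75093621 to 75100589, plus strand) had the widest gap between the HIFs in read numbers. It was at 342, 337 and 313 CPM in Ad-GFP, 90.9, 79.9 and 77.7 in Ad-hHIF2, and 497, 461 and 531 in Ad-hHIF1 samples. The 3 groups did not overlap at any point, with Ad-hHIF2 lowest and Ad-hHIF1 highest. Against Ad-GFP, the log2 fold change with HIF2 was -1.99 (standard error 0.0872, adjusted p = 1.66e-06, edgeR), which is a 3.98-fold lower level and rank 265 of 14987 genes by size. With HIF1 it was 0.59, or 1.50-fold (standard error 0.087, adjusted p = 0.207, edgeR). This missed the threshold over all genes, and its adjusted p ran from 1.25e-11 in DESeq2, through 7.67e-05 without a count filter and 0.0243 in a robust fit (both edgeR), to 0.803 over the alternatives. Ad-hHIF2 against Ad-hHIF1, Hmox1 was 6.00-fold lower (log2 fold change -2.58, standard error 0.0934, adjusted p = 6.4e-08, edgeR).

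Macrophages also use Hmox1 to recycle heme. Of 8 macrophage markers, 6 had a median below 1 CPM over the 9 samples. Marco was at 0 in every Ad-hHIF2 sample, though its groups overlapped in every comparison. Their sum was 12.2 to 16.6 CPM in Ad-GFP, 14.9 to 19.6 in Ad-hHIF2 and 9.39 to 11.4 in Ad-hHIF1 samples, with Cd68 as the most abundant. Without Cd68 it was 2.75 to 4.37, 3.47 to 4.75 and 0.946 to 2.10 CPM. Of the 5 tested between Ad-hHIF2 and Ad-GFP, Csf1r was higher and Ptprc lower (edgeR), against 15.9% and 13.6% of all genes. Ptprc had 18 to 24 reads in Ad-GFP and at most 3 in Ad-hHIF2 samples, so it passed the count filter only through the Ad-GFP samples. Of 6 erythroid markers, all had a median below 1 CPM. Their summed level was 1.95 to 2.05 CPM in Ad-GFP, 1.62 to 1.78 in Ad-hHIF2 and 1.18 to 2.58 in Ad-hHIF1 samples. Of the 2 erythroid markers tested between Ad-hHIF2 and Ad-GFP, Alas2 fell by 1.43 on the log2 scale (adjusted p = 0.0337, edgeR), at 17 to 29.0 reads in Ad-GFP and 7 to 18.5 in Ad-hHIF2 samples. The other, Hbb-bs, the most abundant of the erythroid markers, went the other way at 0.34 and did not pass (adjusted p = 0.517, edgeR). Fibroblast markers summed to 9.53 to 19.1 CPM with Col3a1 as the most abundant, and endothelial markers to 1.02 to 3.11 with Kdr as the most abundant. The part of these cells in the Hmox1 result was not tested.

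**Figure D2:**
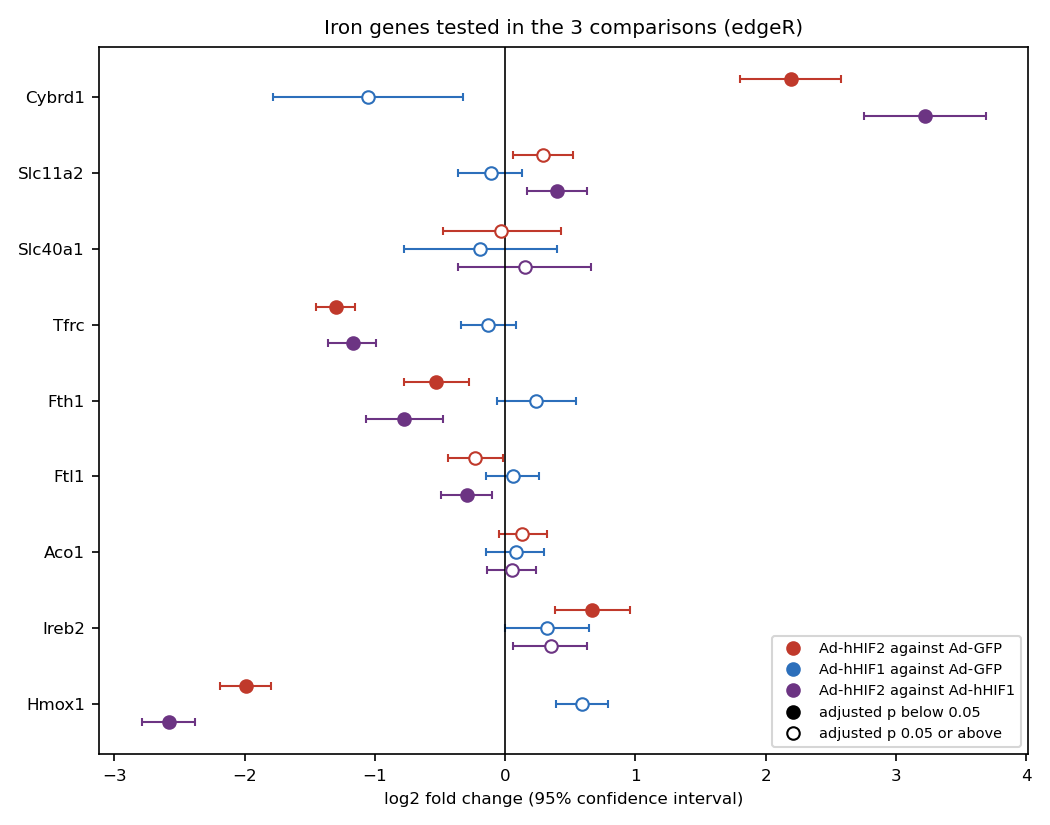
Log2 fold change of the 9 tested iron genes in 3 comparisons (red, Ad-hHIF2 against Ad-GFP; blue, Ad-hHIF1 against Ad-GFP; purple, Ad-hHIF2 against Ad-hHIF1), with 95% confidence intervals from edgeR. Filled points have an adjusted p below 0.05: 5 red, 0 blue and 6 purple. Cybrd1 lies furthest right at 2.19 and 3.22, and Hmox1 furthest left at -1.99 and -2.58.

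Compared per kb of effective length, so that genes of different size can be set side by side, the levels in Ad-GFP samples spread widely. Ftl1 led with 1163 ± 92.4 CPM per kb (SD, n = 3), followed by Fth1 with 341 ± 32.4 and Hmox1 with 229 ± 10.5. Tfrc came next with 18.9 ± 2.95 CPM per kb, followed by Slc11a2 with 8.95 ± 1.52, Aco1 with 8.51 ± 0.556, Ireb2 with 2.97 ± 0.528 and Slc40a1 with 2.90 ± 0.859. Cybrd1, at 0.50 ± 0.111, and Heph, with at most 0.0319, closed the order. Neighbours in this order did not overlap, except Slc11a2 with Aco1 and Ireb2 with Slc40a1.

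With HIF2 the order changed at Tfrc, which came to lie below Slc11a2 and Aco1 at 6.45 ± 0.528 CPM per kb (SD, n = 3). Cybrd1 reached 2.25 ± 0.169 CPM per kb and stayed below Slc40a1, at 2.82 ± 0.346, without overlap. Hmox1 remained in its place after the ferritins at 57.3 ± 4.89 CPM per kb. With HIF1, Hmox1 at 344 ± 20.1 overlapped Fth1 at 407 ± 54.1 CPM per kb, and Cybrd1 stood at 0.24 ± 0.0492.

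**Figure D3:**
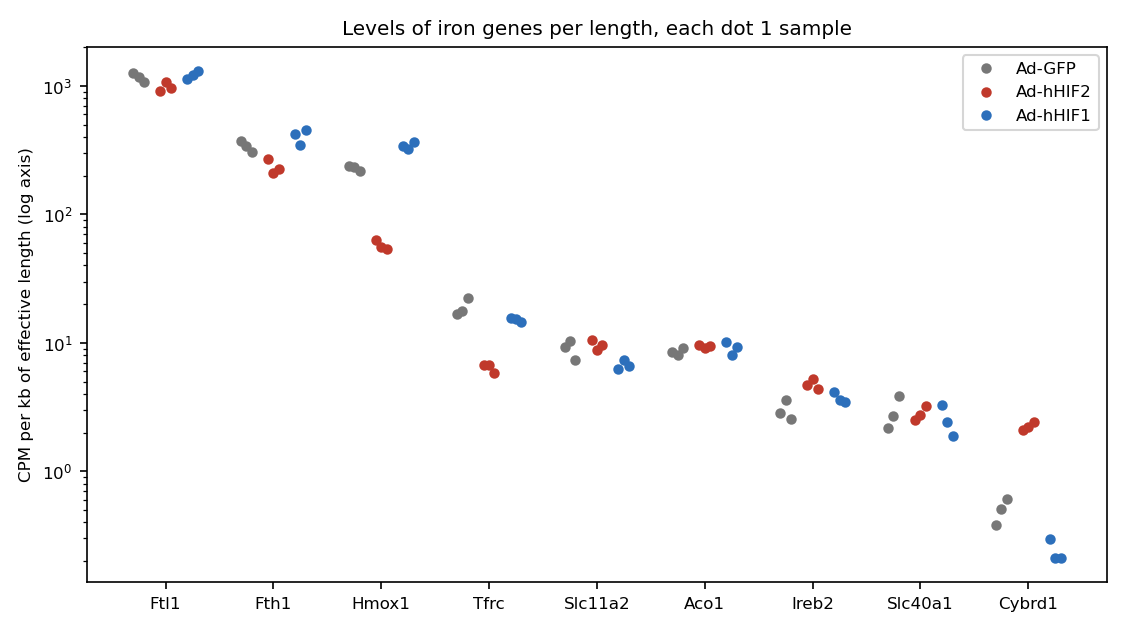
Levels of the 9 iron genes detected in every sample, in CPM per kb of effective transcript length on a log axis, ordered by the mean in Ad-GFP samples. Each dot is a sample. Ftl1 stands at 917 to 1298 CPM per kb over all samples, and Cybrd1 moves from 0.383 to 0.605 in Ad-GFP to 2.11 to 2.44 in Ad-hHIF2 samples.

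The quantification also gives the mean transcript length behind each gene's reads, weighted by isoform abundance. It was the same in every sample for Cybrd1 (5339 bases), Ireb2 (5808) and Fth1 (866). For Slc11a2, whose transcripts differ at both ends, it ran from 2125 to 2506 bases in Ad-GFP, 2457 to 2612 in Ad-hHIF2 and 2390.5 to 3161 in Ad-hHIF1 samples. For Tfrc it was 2956 to 3876 bases in Ad-GFP, 3913 to 4394 in Ad-hHIF2 and 3666 to 4389 in Ad-hHIF1 samples, so that the Ad-hHIF2 samples were just above all Ad-GFP samples. The lengths of Hmox1 (1579 to 1593), Ftl1 (911 to 958), Slc40a1 (3281 to 3409) and Aco1 (3578 to 3832) stayed within narrower ranges. Individual isoforms were not tested.

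Beyond the 10 genes, a list of 51 further iron and heme genes was read for context, of which 43 were tested in each comparison. Ncoa4, the receptor that delivers ferritin to the lysosome for breakdown, rose most. It was at 112, 139.95 and 109.7 CPM in Ad-GFP, 389, 398 and 356 in Ad-hHIF2, and 131, 115 and 132 in Ad-hHIF1 samples. The Ad-hHIF2 samples lay far above the rest, by 1.67 on the log2 scale against Ad-GFP (standard error 0.109, adjusted p = 1.76e-05, edgeR) and 1.60 against Ad-hHIF1 (adjusted p = 4.55e-06, edgeR). Fth1 RNA stood lower in the same samples, and a link between these genes was not tested.

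Steap1, a member of the STEAP family that is listed with the ferrireductases but lacks the NADPH-binding domain of its relatives, fell with HIF2. Its values were 27.8, 26.1 and 19.3 CPM in Ad-GFP, 12.2, 14.3 and 12.7 in Ad-hHIF2, and 25.3, 27.8 and 27.8 in Ad-hHIF1 samples. The log2 fold change was -0.90 against Ad-GFP (adjusted p = 0.00179, edgeR) and -1.04 against Ad-hHIF1 (adjusted p = 0.000266, edgeR). Bmp6, a ligand that induces hepcidin in the liver, was low throughout, at 1.09, 2.30 and 2.25 CPM in Ad-GFP, 0.663, 0.628 and 0.808 in Ad-hHIF2, and 1.60, 0.962 and 1.71 in Ad-hHIF1 samples. It fell against Ad-GFP by 1.42 on the log2 scale (adjusted p = 0.0227, edgeR), a call lost without Ad-GFP replicate 3 (0.0886), Ad-hHIF2 replicate 1 (0.073) or Ad-hHIF2 replicate 3 (0.0777). Against Ad-hHIF1 it was at -1.04 and did not pass (adjusted p = 0.0717, edgeR). That difference passed without Ad-hHIF1 replicate 3 (-1.26, adjusted p = 0.0397, edgeR), with at least 10 counts in every sample (0.0374, edgeR) and in DESeq2 (0.0433). In limma on log2(TPM + 1), the calls against Ad-GFP were lost for Steap1 (-0.30, adjusted p = 0.483) and Bmp6 (-0.07, adjusted p = 0.201) and held for Ncoa4 (1.89, adjusted p = 6.66e-07). The mean TPM of Bmp6 was 0.0821, a level at which adding 1 shrinks any fold change, so its loss there says little. In limma on log2(TPM + 0.1), Bmp6 was at -0.39 (adjusted p = 0.217).

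Of the 43, 8 were higher with HIF2 than with GFP and 5 lower (edgeR, adjusted p under 0.05), which is 30.2% against 29.5% of all genes tested, and 2 of these changed at least 2-fold, Ncoa4 and Bmp6 (4.65% against 6.73%). The shares of the list were thus close to or below those of all genes. Their median log2 fold change was -0.02. By role, ferritin delivery and iron chaperones had 2 of 3 higher, iron-sulfur cluster assembly 2 higher and 1 lower of 7, and heme synthesis 1 higher and 1 lower of 12. Metal and heme importers had 1 higher and 1 lower of 4, ferrireductases 1 lower of 4, ferroxidases and copper supply 1 higher of 3, and iron sensing 1 higher of 1. None passed among the 5 tested genes of heme export and breakdown or the 3 of transferrin and its partners, and Bmp6 was the one tested gene of the hepcidin group.

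The counts moved when single samples were left out. The number higher was 3 or 4 without Ad-GFP replicate 1 or 3, 2 without Ad-hHIF2 replicate 3 and 3 without Ad-hHIF2 replicate 4, and the number lower was 3 without Ad-GFP replicate 3 or Ad-hHIF2 replicate 3. How many of all genes passed with a sample left out is not given here, so these counts do not describe the list alone. With total counts, 10 were higher and 2 lower, while over all genes 2381 higher and 2035 lower became 3491 and 828. Between Ad-hHIF2 and Ad-hHIF1, 3 were higher and 4 lower, 16.3% of the 43 against 25.8% of all genes, with Ncoa4 and Steap1 at least 2-fold apart, and the number lower was 8 without Ad-hHIF1 replicate 3. Between Ad-hHIF1 and Ad-GFP, none of the 43 passed in edgeR and 1 in DESeq2.

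The most abundant gene of each remaining role gave small differences between Ad-hHIF2 and Ad-GFP. Fbxl5, the iron sensor that marks IRP2 for degradation, rose by 0.29 on the log2 scale (adjusted p = 0.0189, edgeR). Ceruloplasmin (Cp), a ferroxidase, was at -0.18, heme oxygenase 2 (Hmox2) at -0.09, transferrin (Trf) at 0.10, the heme transporter Slc48a1 at -0.01, the mitochondrial carrier Slc25a39 at 0.17 and Ciao2b, of iron-sulfur cluster delivery, at -0.34, none of which passed. Against Ad-hHIF1, Cp fell by 0.46 on the log2 scale (adjusted p = 0.000591, edgeR).

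Hmox1 is repressed by BACH1 and induced by NRF2 (Nfe2l2), which also induces genes of glutathione and thioredoxin metabolism. Of 9 such regulators and co-targets, 8 were tested, and in the HIF2 group 1 was higher and 5 lower than with GFP (edgeR, adjusted p below 0.05), with a median log2 fold change of -0.50. That is 75.0% of the 8, against 29.5% of all genes tested (15.9% higher and 13.6% lower). Gclc, the catalytic subunit of glutathione synthesis, was at 23.5, 25.5 and 26.8 CPM in Ad-GFP, 9.57, 8.47 and 8.24 in Ad-hHIF2, and 30.2, 31.4 and 30.2 in Ad-hHIF1 samples. As with Hmox1, the 3 groups did not overlap. Its log2 fold change was -1.52 against Ad-GFP (adjusted p = 1.29e-05, edgeR) and -1.80 against Ad-hHIF1 (adjusted p = 3.8e-07, edgeR).

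Srxn1, which repairs oxidised peroxiredoxins, fell by 1.06 on the log2 scale against Ad-GFP (adjusted p = 0.00121, edgeR). Its values were 16.4, 16.3 and 21.0 CPM in Ad-GFP, 10.1, 8.33 and 7.14 in Ad-hHIF2, and 21.3, 17.7 and 21.1 in Ad-hHIF1 samples, with no overlap between Ad-hHIF2 and the others. In limma on log2(TPM + 1), the calls against Ad-GFP were lost for Srxn1 (-0.05, adjusted p = 0.901) and Gclc (-0.40, adjusted p = 0.203). Gclm, Txnrd1 and Slc7a11 were the other members lower, at -0.41, -0.63 and -0.60, and Keap1, which holds NRF2 in check, was higher at 0.52. Nfe2l2 itself, the most abundant of the list, did not pass at 0.22, nor did Bach1 at 0.20. Between Ad-hHIF2 and Ad-hHIF1 the counts were again 1 higher and 5 lower, against 13.7% and 12% of all genes, and between Ad-hHIF1 and Ad-GFP none of the 8 passed in edgeR and 1 in DESeq2. With total counts the comparison with Ad-GFP gave 3 higher and 2 lower. Over all genes, that scaling turned 2381 higher and 2035 lower into 3491 and 828. Without Ad-GFP replicate 4 the list gave 3 higher, and the share of all genes in that fit is not given here.

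**Figure D4:**
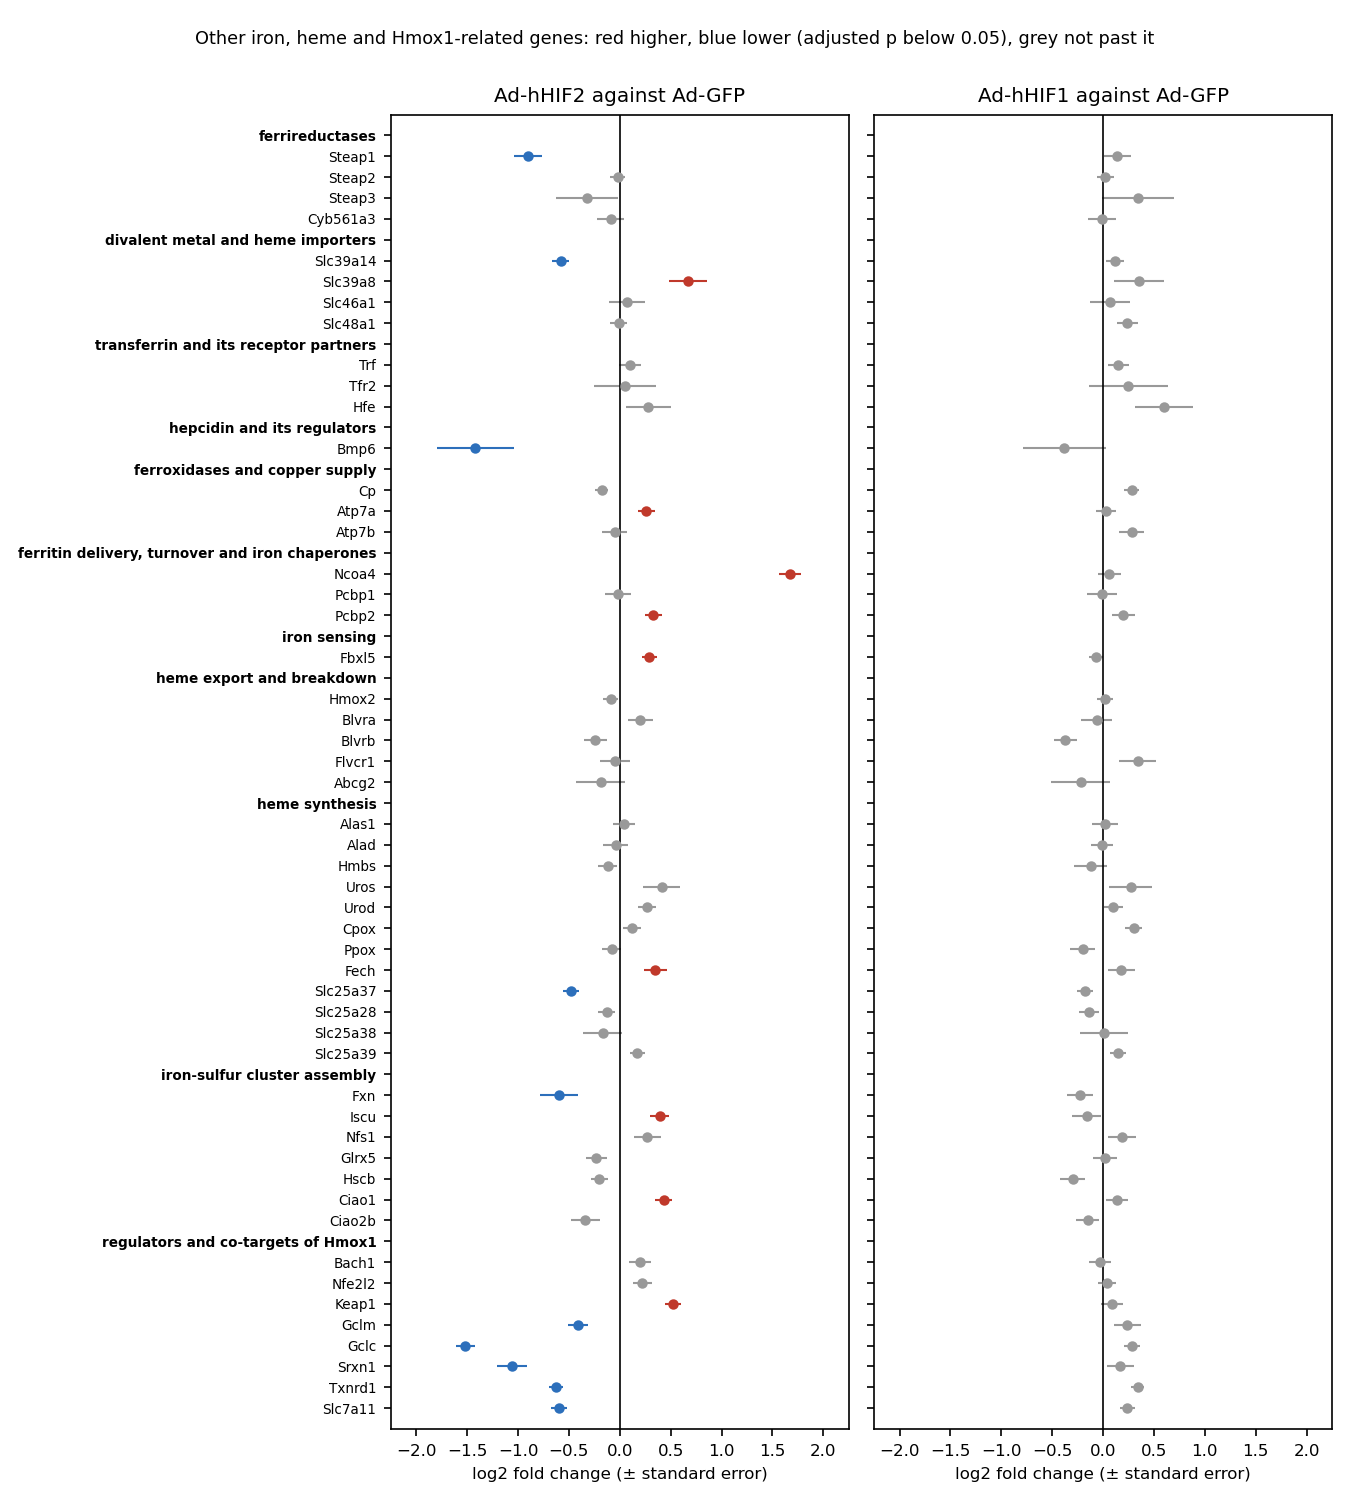
Log2 fold change with its standard error for the 43 further iron and heme genes and 8 regulators and co-targets of Hmox1, grouped by role, for Ad-hHIF2 (left) and Ad-hHIF1 (right) against the shared Ad-GFP samples. Red and blue mark genes higher or lower at an adjusted p below 0.05 (edgeR) and grey the others. Ncoa4 stands alone on the right at 1.67, Gclc, Bmp6 and Srxn1 lie left of -1, and no gene of the right panel is coloured.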

How the data were processed

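The strand setting, the aligner, the genome build and the annotation release of the deposited tables were not given in the sources used here. The authors filtered reads on quality, ran RSEM and deposited for each of the 9 samples an expected count, a TPM (abundance scaled for length), a transcript length and an effective length for each of 46517 genes, with no pooling of replicates. Of the expected counts, 85.7% were whole, since RSEM splits reads that match several genes.

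The 10 genes and all lists were chosen with earlier results of these data known. Expected counts were rounded and tested with the quasi-likelihood test of edgeR 4.0.16 (R 4.3.3), with its low-count filter, TMM factors and Benjamini-Hochberg adjustment over all genes tested. Each HIF was fitted with Ad-GFP alone, and the HIFs were compared in a fit of all 9 samples, so a fold change between them need not equal the difference of the others. The study's own tool, EBSeq, was not used here. Intervals are at 95%, and each standard error is the log2 fold change over the root of its F value. CPM used TMM factors over all 9 samples, and CPM per kb divided by the effective length. Total counts had a median of 34006559, and intervals and floors cover counting error or the spread between samples only.

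Alternatives were no filter or at least 10 counts, median-ratio or total-count scaling, DESeq2 1.42.0, limma-voom (limma 3.58.1), limma on log2 of TPM plus 1 or 0.1, unrounded counts, other samples in the fit, a replicate block, a robust fit, other thresholds and each sample left out. Named genes were all 10, plus, from the lists, those past an adjusted p of 0.05 and 2-fold in any comparison and the most abundant by TPM of each role. Of the cell type markers, those at 0 in every sample or most abundant were named by rule (1 is not reported here), and Apoa4, Krt20, Epcam, Gata4, Csf1r, Ptprc, Marco and Alas2 were named after their values were seen. Replicates were checked for duplicate libraries, and every pair differed beyond counting noise (chi-square per degree of freedom 26.3 to 495). The testing steps were tested on simulated data. IRE sites and gene positions came from GENCODE M21 on GRCm38, matched by Ensembl gene ID, and promoter windows from RefSeq on GRCm38.p6, matched by symbol for 6 of the 10 genes. Values were computed from the deposited tables, whose build may differ from these references.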

Additional observations from a re-analysis of the deposited data

How the results depend on the processing

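Under 22 settings, the log2 fold changes of the tested iron genes gave 513 alternative values, of which 473 stayed on their side of the threshold, 26 lost it and 14 gained it. Of the 513, 13 differed in sign from the main value, none of them past the threshold in the main analysis. For the other named genes 376 stayed, 18 lost it and 5 gained it of 399, and 2 uncalled values differed in sign. Between Ad-hHIF2 and Ad-GFP, the 5 genes past the threshold became 2 with limma on log2(TPM + 1), 2 with log2(TPM + 0.1) and 3 with a 2-fold minimum, and 5 to 6 when each sample was left out in turn. Between Ad-hHIF1 and Ad-GFP, 0 became 1 without a count filter, 1 in DESeq2 and 1 in the robust fit (Hmox1 each time), and 0 to 0 with samples left out. Between Ad-hHIF2 and Ad-hHIF1, 6 became 2, 2 and 3 under the same TPM and 2-fold settings and 4 to 6 with samples left out. The shares of all genes on TPM or with samples left out are not given here. Cybrd1 and Hmox1 were the genes that passed on TPM. TPM of Ad-hHIF2 replicate 1 stood high, for example 66.6 for Fth1 against 28.4 and 31.4 in the other Ad-hHIF2 samples, and the cause was not tested.

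Whether same-numbered samples deviate together was checked by correlation. It was 0.0822, 0.101 and 0.25 for replicates 1, 3 and 4 between Ad-hHIF2 and Ad-GFP, 0.185, 0.0696 and -0.147 between Ad-hHIF1 and Ad-GFP, and -0.105, -0.131 and -0.272 between the HIFs, so the numbers were not used to pair samples, and what a number marks is not stated in the sources used here. With the replicate block, 5, 0 and 5 genes passed.

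Slc11a2 against Ad-GFP passed without a count filter (adjusted p = 0.0169), and Ftl1 in DESeq2 (0.0202), limma-voom (0.0355) and the robust edgeR fit (0.0364). Depth limits Heph, which could not be tested, and Cybrd1, which had under 100 reads in each Ad-GFP and Ad-hHIF1 sample.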
